A study of Mus musculus with 12 samples.

Results

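The 6 genes described here encode the α chains of type IV collagen, Col4a1 to Col4a6, and were taken by gene symbol from the 55487 genes of the count table. All 6 were in the table, each in a single row, and all 6 passed the filter on low counts that left 17890 genes for testing. The study sequenced messenger RNA from the kidneys of B6 males with XLAS, X-linked Alport syndrome, a hereditary disease of the glomerular filter caused by faults in Col4a5. Kidneys were taken at 30 weeks of age from mice on a control diet (6 libraries) or a diet containing 500 ppm of the flavonol fisetin (6 libraries), and each of 2 labelled batches held 3 libraries of each diet. The genotype label of every library, in both diets, was HET, although a male carries a single X chromosome, and the allele of Col4a5 was not given. No kidney from a healthy mouse was analysed here, so each comparison was between diseased kidneys. The labels did not state that each library came from a separate animal, so the spread behind each p-value may in part be technical.

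Type IV collagen is the sheet-forming collagen of basement membranes, built from heterotrimers of its α chains that join end to end through their globular NC1 domains. The α1 and α2 chains assemble into the network found under nearly every epithelium and endothelium, whereas the α3, α4 and α5 chains assemble into the network that podocytes lay down in the mature glomerular basement membrane and that some tubular basement membranes also hold. The α5 and α6 chains form a further trimer, found in the membrane of Bowman's capsule. Without a working α5 chain, the α3 and α4 proteins are not stably incorporated, although their genes can still be transcribed.

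The 6 genes lie head to head in 3 pairs, and the sequence at the point where each pair diverges is shown because genes of a pair could be read from shared or neighbouring start regions. On the GRCm38 build (GENCODE M21), Col4a1 (ENSMUSG00000031502) occupied chr8:11198423-11312826 on the minus strand and Col4a2 (ENSMUSG00000031503) chr8:11312805-11449287 on the plus strand, so that their first exons overlapped. Col4a4 occupied chr1:82448423-82586849 on the minus strand and Col4a3 chr1:82586921-82722059 on the plus strand, with 71 bases between their starts. Col4a6 occupied chrX:141165403-141474076 on the minus strand and Col4a5 chrX:141475385-141689234 on the plus strand, with 1308 bases between. The sequences below, from RefSeq (GRCm38.p6), are the 22 bases shared by the first exons of Col4a1 and Col4a2 (chr8:11312805-11312826, plus strand), the 71 bases between Col4a4 and Col4a3 (chr1:82586850-82586920, plus strand), and the stretches just before the annotated starts of Col4a5 (chrX:141475169-141475384, plus strand, 216 bases) and Col4a6 (chrX:141474077-141474326, minus strand, 250 bases). Capitals mark 3 motifs on either strand, the CCAAT box (CCAAT), the GC box (GGGCGG) and the TATA box (TATAAA).
Col4a1 and Col4a2: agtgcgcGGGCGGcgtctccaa
Col4a3 and Col4a4: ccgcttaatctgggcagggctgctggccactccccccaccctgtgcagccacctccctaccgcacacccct
Col4a5: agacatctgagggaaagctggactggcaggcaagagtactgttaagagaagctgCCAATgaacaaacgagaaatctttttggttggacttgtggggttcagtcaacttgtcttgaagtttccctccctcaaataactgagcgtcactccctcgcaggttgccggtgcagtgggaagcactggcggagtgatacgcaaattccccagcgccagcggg
Col4a6: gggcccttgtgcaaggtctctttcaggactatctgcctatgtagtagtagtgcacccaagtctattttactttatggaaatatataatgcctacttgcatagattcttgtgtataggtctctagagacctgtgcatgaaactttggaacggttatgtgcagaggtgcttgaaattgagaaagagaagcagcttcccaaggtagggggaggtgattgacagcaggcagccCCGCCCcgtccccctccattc

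The 22 bases shared by Col4a1 and Col4a2 held 1 GC box, the 71 bases between Col4a3 and Col4a4 held none of the 3 motifs and were 69.0% G and C, the Col4a5 stretch held 1 CCAAT box, and the Col4a6 stretch held 1 GC box. RefSeq windows of 300 bases, from 250 before to 50 after the start, were matched for 5 of the 6 genes (not Col4a3). The windows of Col4a1 and Col4a2, which overlap, were 74% and 73.7% G and C with 37 and 33 CpG dinucleotides, and those of Col4a4, Col4a5 and Col4a6 were 63.3%, 52.7% and 48.3% with 14, 11 and 3, against medians of 52.7% and 7 over 32841 windows. A TATA box was in none of the 5 windows and in 13.62% of all windows. GC boxes were in 35.67% of all windows and in those of Col4a1, Col4a2, Col4a5 and Col4a6, and CCAAT boxes in 37.42% of all windows and in those of Col4a1, Col4a2 and Col4a5. A match describes letters in the sequence and is not evidence of binding.

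Total counts ran from 18638748 to 22396857 with the control diet and from 16310214 to 24451821 with fisetin. CPM values below are counts scaled to TMM-adjusted library size. Each of the 9 cell type marker lists was detected, podocyte genes included (Nphs1, nephrin, 37.5 ± 4.92 CPM with control diet, SD, n = 6), as were proximal tubule genes (Lrp2, megalin, 4301 ± 960 CPM). In bulk tissue, fewer cells of a type and less RNA per cell cannot be told apart. Col4a1 and Col4a2 share 22 exon bases. Other genes overlapping a chain's exons had few counts: the largest was the antisense gene C430014B12Rik, with 117 counts over 12 libraries against 91772 for Col4a3.

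Per unit of length, the α1 and α2 genes were the most abundant and the 6 chains kept 1 order in every kidney. On the authors' FPKM scale, which corrects for gene length, Col4a1 averaged 150.5 ± 33.6 with the control diet and 154 ± 16.5 with fisetin (SD, n = 6 each), and Col4a2 83.3 ± 12.6 and 84.8 ± 11.4. Mean FPKM of Col4a3 was 52.6 ± 3.86 and 46.2 ± 4.78, and that of Col4a4 42.3 ± 4.02 and 33.9 ± 4.26. Col4a5, the gene affected in this disease, was far lower at 3.98 ± 0.12 and 3.88 ± 0.42, and Col4a6 averaged 0.10 ± 0.02 and 0.13 ± 0.03. The order Col4a1, Col4a2, Col4a3, Col4a4, Col4a5, Col4a6 held in 12 of 12 libraries by FPKM and by counts per kilobase of annotated exon. Neighbours were separated by unequal steps in counts per kilobase: Col4a3 exceeded Col4a4 by 1.15-fold to 1.32-fold and Col4a1 exceeded Col4a2 by 1.28-fold to 1.42-fold, whereas Col4a4 exceeded Col4a5 by 7.30-fold to 11.5-fold. Across kidneys the ranges of Col4a3 and Col4a4 overlapped on the CPM scale, so that their order was seen within kidneys.

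The steps depend on the length used. The length implied by the authors' FPKM was not constant between libraries and for Col4a1 ran from 4282 bases (control 1) to 5842 (control 3), whereas that of Col4a2 stayed between 6077 and 6154. The FPKM ratio of Col4a1 to Col4a2 therefore varied from 1.53 to 2.07 where the ratio of counts per fixed exon length varied from 1.28 to 1.42, and chain ratios below use the fixed length (7464, 6619, 9967, 10612, 6718 and 7973 bases for Col4a1 to Col4a6).

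The first question is whether the diet moved the messenger RNA of any chain. With fisetin the mean levels of Col4a3 and Col4a4, which encode the partners of the affected chain, were lower, those of Col4a1 and Col4a2 were nearly the same, and that of Col4a6 was higher from very few counts. None of the 6 passed adjustment over all genes by edgeR's quasi-likelihood test with batch in the model, and neither did any other gene (0% of 17890). An unadjusted p under 0.05 was reached by 2608 genes (14.6%), 6.34% of all genes lower and 8.23% higher, and by 3 chains, 2 of them lower (Col4a3 and Col4a4) and 1 higher (Col4a6). Col4a6 did not reach it without the filter on low counts (edgeR unadjusted p = 0.0536) or by DESeq2 (unadjusted p = 0.100). DESeq2 called 0 chains where it called 153 genes (0.855%), and by its unadjusted p 15.7% of genes were under 0.05. These whole-table counts moved with single libraries. The 2608 genes became 4636 without fisetin 6, and 1731, 1702, 1668 and 1628 without control 2, control 4, fisetin 1 and fisetin 5. The 153 of DESeq2 became 1713, 614 and 315 without fisetin 6, control 1 and fisetin 3, and 47 to 97 without control 2, 3, 4 or 6 or fisetin 1, 2 or 5. The median log2 fold change was -0.05 over the 6 chains and 0.00 over all genes tested (quartiles -0.11 and 0.12), and 4 of 6 chains had a negative fold change against 49.8% of genes.

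**Figure D1:**
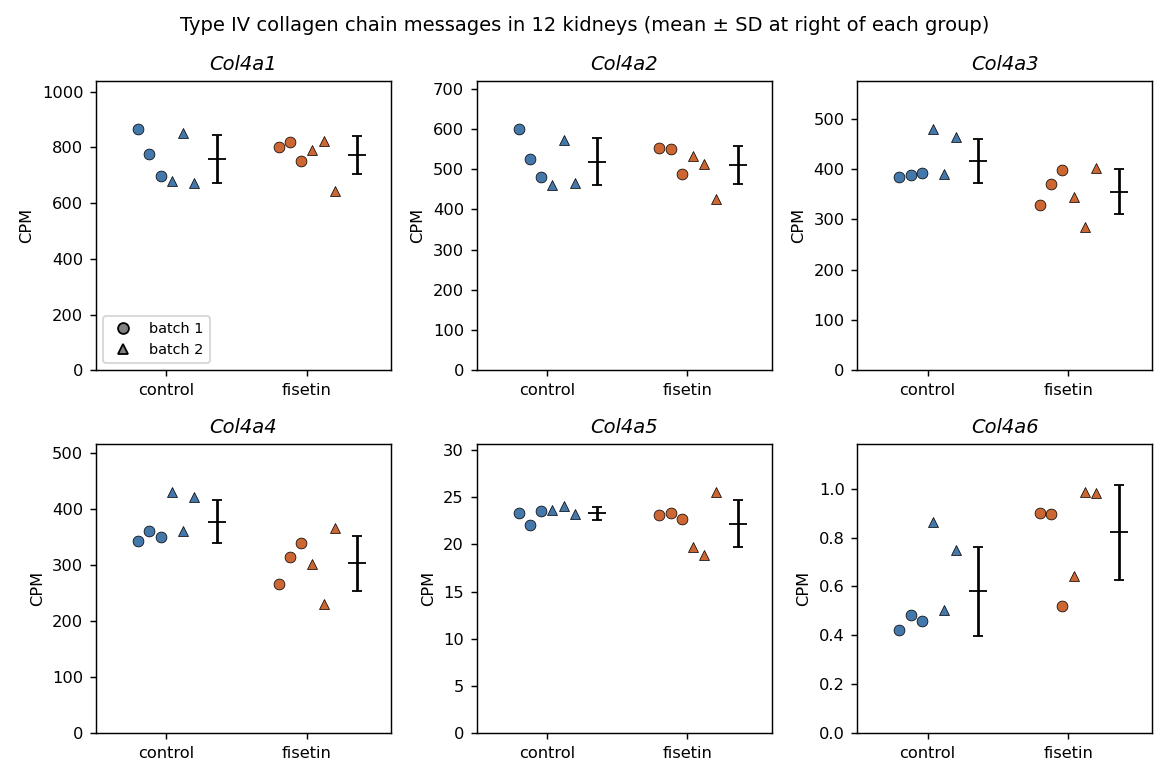
Level of each type IV collagen chain gene (counts scaled to library size, CPM) in the 12 kidney libraries (vertical axes, each panel from 0), by diet, with a bar for the mean and SD of 6 libraries. Col4a3 and Col4a4 were lower in mean with fisetin with overlapping diets, and Col4a6 stayed under 1 CPM throughout.

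The α1 chain gene Col4a1 was measured at 673, 737 and 865 CPM with the control diet (lowest, median and highest of 6 libraries) and at 644, 795 and 824 CPM with fisetin. The highest kidney was control 1 and the lowest fisetin 6, and the ranges of the diets overlapped over most of their length. The log2 fold change, fisetin against control, was 0.03 ± 0.09 (SE; 95% interval -0.16 to 0.22; edgeR adjusted p = 0.895).

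Col4a2, which encodes the α2 chain of the same trimer, was measured at 461, 503 and 599 CPM with the control diet and 427, 523 and 553 CPM with fisetin. The same 2 kidneys, control 1 and fisetin 6, were again the highest and the lowest, and the diets overlapped throughout. Its log2 fold change was -0.02 ± 0.08 (interval -0.20 to 0.16; edgeR adjusted p = 0.912). The intervals of both chains leave room for differences in either direction, so equal levels were not shown.

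Col4a3, which encodes the α3 chain whose NC1 domain is the Goodpasture antigen, was measured at 384, 391 and 479.6 CPM with the control diet and 285, 358 and 403 CPM with fisetin. Its lowest kidneys were fisetin 5 and fisetin 1 and its highest control 4 and control 6, and 4 of the 6 fisetin kidneys lay below the lowest control. The log2 fold change was -0.23 ± 0.10 (interval -0.43 to -0.02; unadjusted p = 0.0339, edgeR adjusted p = 0.319). Within batches it was -0.08 in batch 1 and -0.36 in batch 2, with an interaction of -0.29 ± 0.18 (edgeR adjusted p = 1.00).

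Col4a4, which encodes the α4 chain, was measured at 342, 360.0 and 430.0 CPM with the control diet and 230.0, 308 and 365 CPM with fisetin. Fisetin 5 and fisetin 1 were again lowest and control 4 and control 6 highest. Of the 6 fisetin kidneys 5 lay below every control, and fisetin 6, at 365 CPM, lay within the control range. The log2 fold change was -0.31 ± 0.11 (interval -0.55 to -0.08; unadjusted p = 0.0125, edgeR adjusted p = 0.290). It was -0.19 in batch 1 and -0.43 in batch 2 (interaction -0.24 ± 0.21, edgeR adjusted p = 1.00). The adjusted p by DESeq2 was 0.128. By limma-voom with quality weights, which called 13.9% of all genes, the log2 fold change was -0.32 with an adjusted p of 0.0310, so the call for Col4a4 depended on the tool.

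Col4a5 was measured at 22.03, 23.45 and 24.05 CPM with the control diet and 18.82, 22.87 and 25.56 CPM with fisetin. The 6 control kidneys lay close together, with a coefficient of variation of 2.96%, whereas that of the fisetin kidneys was 11.2%, with fisetin 4 and fisetin 5 below and fisetin 6 above every control. The difference in spread was not tested. The log2 fold change was -0.07 ± 0.07 (interval -0.23 to 0.08; edgeR adjusted p = 0.619), and it was 0.00 in batch 1 and -0.14 in batch 2. Because the allele is unknown, these counts do not tell how much of the messenger RNA could give a working chain.

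Col4a6, which encodes the chain that pairs with α5 in the capsule, was close to the limit of the counts, with 8 to 19 reads a library. It was measured at 0.42, 0.49 and 0.87 CPM with the control diet and 0.52, 0.90 and 0.99 CPM with fisetin. Of the fisetin kidneys 4 lay above every control (1, 2, 5 and 6). The log2 fold change was 0.50 ± 0.23 (interval 0.01 to 0.99; unadjusted p = 0.0455, edgeR adjusted p = 0.336), the largest of the 6 and the least precise. DESeq2 gave no adjusted p for it and an unadjusted p of 0.100. The unadjusted p was 0.0802 by limma-voom, 0.267 by log2(FPKM + 1) and 0.0618 by edgeR without the batch term. By edgeR with relative log expression and total count scaling it was 0.0455 and 0.0302. In control 1, 2, 3 and 5 Col4a6 had 8, 9, 10 and 10 reads, at or below the filter's minimum count of 10. The fisetin kidneys had 10 to 19 reads, so passing the filter rested more on the diet where it was higher. Without the filter its log2 fold change was 0.51 (edgeR unadjusted p = 0.0536).

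The CPM ranges of the 2 diets were fully apart for 0 of the 6 chains and for 0.894% of all genes. Between batches no chain passed by edgeR (adjusted p at least 0.892, 0% of genes called). The interaction of diet and batch passed for 0% of genes by edgeR adjusted p, and was under an unadjusted p of 0.05 for 2.1% of genes and for 0 of the 6 chains. Fisetin 5 and fisetin 6 were the lowest and the highest kidney in the podocyte and endothelial marker lists described below. Without fisetin 5 and fisetin 6, the log2 fold changes of Col4a3 and Col4a4 were -0.17 (edgeR unadjusted p = 0.0597) and -0.26 (edgeR unadjusted p = 0.00875).

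**Figure D2:**
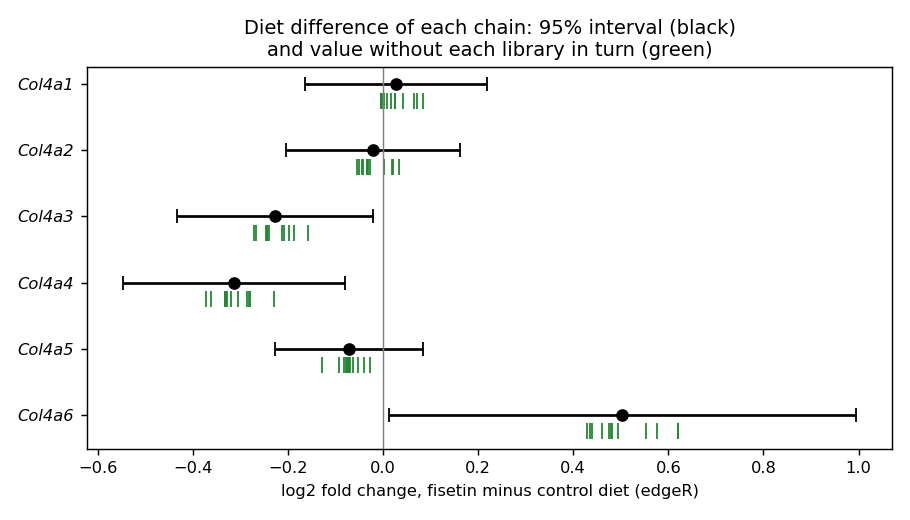
Log2 fold change of each chain gene, fisetin against control (horizontal axis, edgeR with batch in the model), as a black point with its 95% interval, above green ticks for the value without each of the 12 libraries in turn. The intervals of Col4a3 and Col4a4 lay below 0, that of Col4a6 above 0, and those of the other chains crossed it.

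Chain ratios within each kidney ask whether the composition of the collagen IV transcripts differed between diets, and do not depend on library size. They were compared by an exact permutation test over all 400 arrangements of diet within batches, two-sided (smallest possible p 0.005), with Benjamini-Hochberg adjustment over 7 ratios. None of the 7 passed, and the 3 nearest, with adjusted p of 0.0525 to 0.0933, were the ratios inside the 3 gene pairs. Their mean log2 differences, fisetin against control, were 0.05, 0.09 and -0.60.

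The ratio of Col4a3 to Col4a4 in counts per kilobase was 1.195, 1.150, 1.196, 1.188, 1.153 and 1.177 in control 1 to 6 and 1.321, 1.258, 1.249, 1.214, 1.319 and 1.176 in fisetin 1 to 6. Control kidneys were tightly grouped (1.18 ± 0.020, SD, n = 6), and 5 of the 6 fisetin kidneys lay above all of them (1.26 ± 0.057), fisetin 6 alone falling inside. The log2 difference was 0.09 ± 0.03 (SE; exact permutation p = 0.015, adjusted 0.0525), 0.11 in batch 1 and 0.07 in batch 2. By FPKM it was 0.13 (exact permutation p = 0.005, adjusted 0.035). The length implied by FPKM was not constant for Col4a4 either, from 8514 bases (control 4) to 9377 (fisetin 4). For Col4a3 it ran from 7698 to 7886, so the FPKM ratio also carries these lengths. In counts per kilobase, without fisetin 1, fisetin 4 or fisetin 6 the log2 difference was 0.08, 0.10 and 0.11, each below an adjusted p of 0.05. Without fisetin 1 or fisetin 4 the exact permutation p stayed at 0.015, so the lower adjusted p came from the other ratios in the adjustment. It was 0.005 without fisetin 6. Whether the higher ratio passed the threshold therefore depended on the length scale, on single kidneys and on the ratios adjusted with it.

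The Col4a1 to Col4a2 ratio was 1.30 ± 0.016 with the control diet and 1.34 ± 0.048 with fisetin. Of the fisetin kidneys 4 lay above the control range of 1.28 to 1.32, and fisetin 5 was highest at 1.42. The log2 difference was 0.05 ± 0.02 (exact permutation p = 0.04, adjusted 0.0933), and without fisetin 1 or fisetin 4 it was 0.06 and below an adjusted p of 0.05.

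The Col4a5 to Col4a6 ratio was 51.2 ± 13.5 with the control diet and 33.8 ± 9.78 with fisetin. Control 4 and control 6, at 32.4 and 36.8, lay among the fisetin kidneys, and fisetin 3, at 51.6, lay among the controls. The log2 difference was -0.60 ± 0.21 (exact permutation p = 0.015, adjusted 0.0525), -0.72 in batch 1 and -0.47 in batch 2, and without fisetin 1 or fisetin 4 it was -0.53 and -0.67 with an adjusted p below 0.05. The exact permutation p was then 0.02 and 0.015, not lower than with all kidneys. The denominator of this ratio rested on 8 to 19 reads.

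Ratios across the 2 networks varied more between kidneys of the same diet than Col4a1 to Col4a2 or Col4a3 to Col4a4 did, though less than Col4a5 to Col4a6. Col4a3 to Col4a1 was 0.419 ± 0.086 with the control diet and 0.350 ± 0.073 with fisetin, a log2 difference of -0.26 ± 0.18 (exact permutation p = 0.155, adjusted 0.181). Col4a4 to Col4a2 was 0.462 ± 0.091 and 0.376 ± 0.094, a log2 difference of -0.31 ± 0.19 (exact permutation p = 0.115, adjusted 0.161). Both were lower in mean with fisetin in each batch, but only 3 of the 6 fisetin kidneys lay below the lowest control.

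Col4a5 to Col4a1 was 0.0346 ± 0.0040 and 0.0324 ± 0.0065 (log2 difference -0.11 ± 0.14, exact permutation p = 0.455, adjusted 0.455). Col4a5 to Col4a3 was 0.0837 ± 0.0082 and 0.0931 ± 0.0075 (log2 difference 0.16 ± 0.08, exact permutation p = 0.075, adjusted 0.131), with 6 of 6 fisetin kidneys above the control mean. The ranges overlapped, at 0.0731 to 0.0915 with the control diet and 0.0845 to 0.104 with fisetin. The α3, α4 and α5 genes together made up 31.2% ± 4.19 of collagen IV counts per kilobase with the control diet (26.4% to 36.4%) and 27.3% ± 4.35 with fisetin (22.0% to 34.3%). The share was lowest in fisetin 5 and highest in control 4. Col4a5 itself was 1.34% ± 0.084 and 1.34% ± 0.18 of the total.

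**Figure D3:**
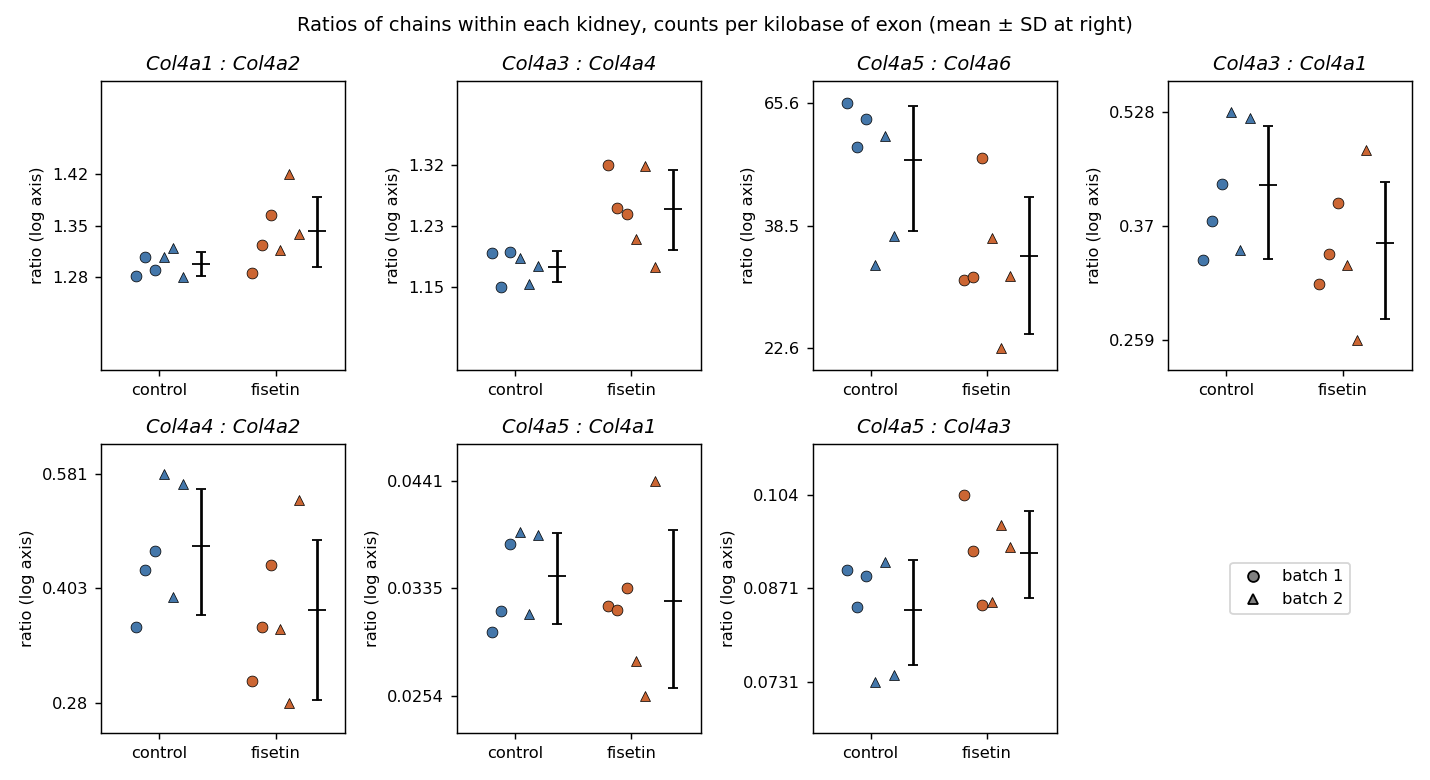
Ratio of 2 chain genes within each kidney, from counts per kilobase of annotated exon (vertical axes, log scale), by diet, with the mean and SD of 6 libraries. Inside the pairs Col4a1 to Col4a2 and Col4a3 to Col4a4 the control kidneys were tightly grouped, and ratios across pairs were spread widely in both diets.

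Across the 12 kidneys the chains varied as 2 tightly linked pairs. On log2 CPM, Col4a1 and Col4a2 correlated with r = 0.95 (rho = 0.92, permutation p adjusted over 15 pairs 7.5e-05 for r), and r was 0.92 without the 2 kidneys farthest from the median and 0.96 and 0.95 within batches. For Col4a3 and Col4a4, r was 0.98 (rho = 0.91, adjusted permutation p = 7.5e-05), 0.96 without the 2 farthest kidneys and 0.96 and 0.99 within batches. The third head-to-head pair, Col4a5 and Col4a6, showed no such relation (r = -0.09, rho = -0.06, adjusted permutation p = 0.759 for r, 0.43 without the 2 farthest kidneys, 0.16 and -0.08 within batches), with Col4a6 near its counting limit.

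Between the pairs, kidneys with more Col4a1 tended to hold less Col4a3. The coefficient was r = -0.62 (adjusted permutation p = 0.0852) and rho = -0.74 (adjusted permutation p = 0.0381), with r of -0.56 without the 2 farthest kidneys and -0.36 and -0.69 within batches. Col4a5 went with Col4a3 (r = 0.68, rho = 0.60) and Col4a4 (r = 0.66, rho = 0.67), for r both at an adjusted permutation p of 0.0794. With batch means subtracted both passed (r = 0.71 each, adjusted permutation p = 0.0423 each). Such values were common on that scale. Ranked by r among 11457 genes with a mean log2 CPM of 3 or more, Col4a5 was 2676 for Col4a3 and 2751 for Col4a4. For Col4a5, Col4a3 ranked 457 and Col4a4 497. For Col4a1, Col4a3 ranked 8518, so many genes had a more negative r. Without the 2 kidneys farthest from the median the uncentred coefficients were 0.41 and 0.48. They were -0.17 and -0.26 in batch 1 and 0.79 and 0.83 in batch 2, over 6 kidneys each, so the positive relation of Col4a5 with its partners was seen in batch 2 only. In batch 1 Col4a5 varied little (22.0 to 23.6 CPM). The difference between batches was not tested.

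**Figure D4:**
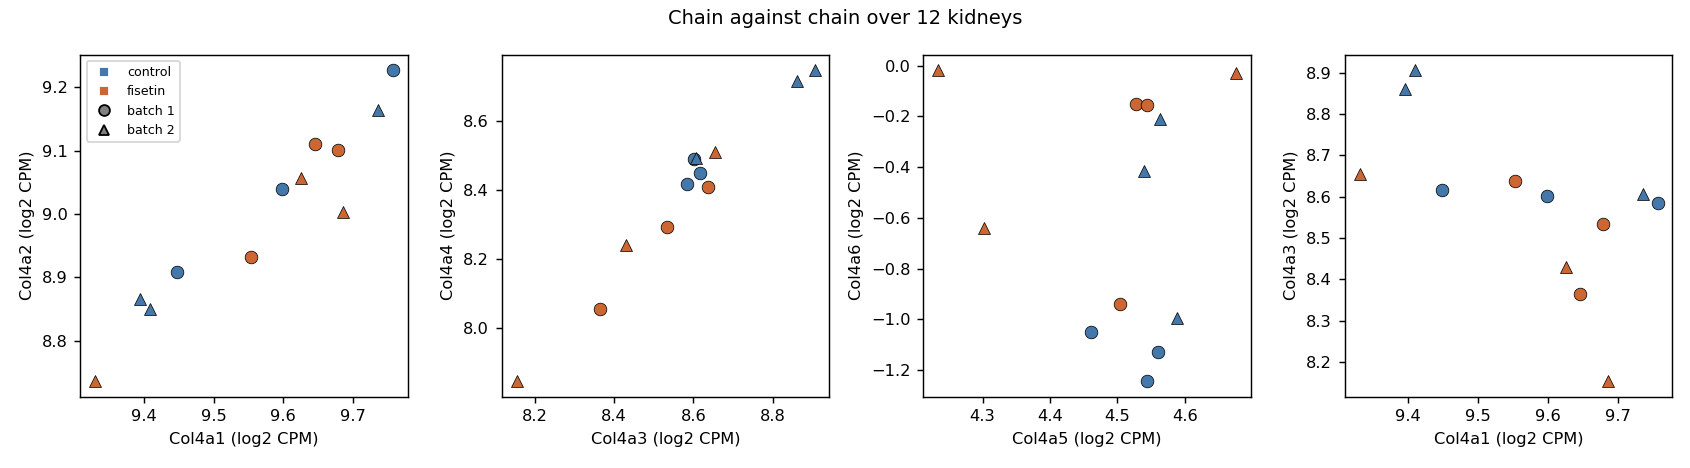
Log2 CPM of 2 chain genes plotted against each other, 1 point a kidney, by diet and batch. Col4a1 with Col4a2 (r = 0.95) and Col4a3 with Col4a4 (r = 0.98) lie along a line, Col4a5 with Col4a6 does not, and Col4a1 with Col4a3 slopes downwards (r = -0.62).

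With each batch mean subtracted, the pattern of each chain was set against 11458 tested genes whose log2 CPM averaged 3 or more, as a description over the 12 kidneys. The gene most like Col4a3 was Col4a4 (r = 0.98), and Col4a3 was in turn the closest to Col4a4. Next to Col4a3 came Kdf1 (0.97), Dclk3 and Rab5c (0.96 each), and next to Col4a4 came Eif4g1, Dclk3 and Ntn1 (0.98 each). Col4a2 ranked 15 for Col4a1, behind Actn1 and Nlgn2 (0.98 each) and Pea15a and Ptgfrn (0.97 each). Col4a1 ranked 10 for Col4a2, whose closest genes were Ncam1 and S100a6 (0.97 each) and Tnc and Col16a1 (0.96 each). For Col4a5 they included Mpp7 (0.91), Ptgs1 (0.90) and Angpt1 (0.89), and for Col4a6 Abcc2 (0.92), Cwf19l2 (0.89), Wapl (0.88) and Phka2 (0.87). The pattern of Col4a6 rested on 8 to 19 reads a library. All these genes are the highest of 11458 over 12 kidneys, so high coefficients can arise by selection alone, and none was tested.

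The levels of the α3 and α4 genes also moved with markers of other cell types. Tubule, collecting duct and immune marker lists differed in mean between diets, none past the threshold. The mean log2 CPM of 8 proximal tubule markers was 0.46 lower with fisetin (exact permutation p = 0.09, adjusted over 9 lists 0.214; summed level 12279 to 24704 CPM with control diet and 7785 to 22466 with fisetin; 8 of 8 markers with a negative fold change). That of 12 immune markers was 0.78 higher (exact permutation p = 0.09, adjusted 0.214; 259 to 477 CPM and 265 to 681 CPM; 12 of 12 with a positive fold change). Podocyte markers, from the cells that make the α3, α4 and α5 network, differed by -0.05 (exact permutation p = 0.67, adjusted 0.754; 890.0 to 1030.1 CPM and 757 to 1140 CPM; 8 of 11 with a negative fold change). Fisetin 5 was lowest in the podocyte, endothelial, proximal tubule, distal tubule and collecting duct lists and highest in the immune list.

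Over the 12 kidneys, the proximal tubule score correlated with Col4a3 at r = 0.90 (rho = 0.94, adjusted permutation p = 0.00054 over 54 relations, r = 0.78 without the 2 farthest kidneys, 0.88 and 0.94 within batches). With Col4a4 it was r = 0.92 (rho = 0.90, adjusted permutation p = 0.00054, 0.81 without the 2 farthest, 0.89 and 0.94 within batches). Col4a1 ran the other way, at r = -0.80 (rho = -0.83, adjusted permutation p = 0.00806, -0.92 without the 2 farthest, -0.69 and -0.83 within batches). The relation was not particular to this list. For Col4a3 and Col4a4, r was 0.91 and 0.94 with collecting duct, 0.88 and 0.90 with thick limb and distal tubule, and 0.79 and 0.83 with endothelium. It was -0.72 and -0.75 with parietal epithelium (0.89 for Col4a1), -0.65 and -0.60 with mesangium, fibroblast and pericyte, and -0.06 and 0.05 with smooth muscle.

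The podocyte score correlated with Col4a3 at r = 0.72 and with Col4a4 at r = 0.75 (rho = 0.76 and 0.78, adjusted permutation p = 0.0308 and 0.0210, 0.79 and 0.81 without the 2 farthest kidneys, 0.87 and 0.89 in batch 1 and 0.70 and 0.72 in batch 2). The immune score correlated with them at r = -0.72 and -0.79 (rho = -0.70 and -0.80, adjusted permutation p = 0.0210 and 0.00772, -0.66 and -0.73 without the 2 farthest, -0.62 and -0.72 in batch 1 and -0.80 and -0.85 in batch 2). With the proximal tubule score as a covariate, the log2 fold change was -0.08 for Col4a3 and -0.14 for Col4a4 (edgeR unadjusted p = 0.20 and 0.0264). Without a covariate the values were -0.23 and -0.31 (unadjusted p = 0.0339 and 0.0125). Col4a1 and Col4a2 were at -0.11 and -0.14 with that same score (unadjusted p = 0.0699 and 0.0214). For Col4a3 and Col4a4 the immune score gave -0.13 and -0.18 (unadjusted p = 0.199 and 0.0825). The podocyte score gave -0.19 and -0.27, with smaller unadjusted p (0.0159 and 0.00127) than without a covariate. None of these passed adjustment over all genes by edgeR. These scores were measured in the same kidneys and may themselves follow the diet, and their part in the result was not tested.

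**Figure D5:**
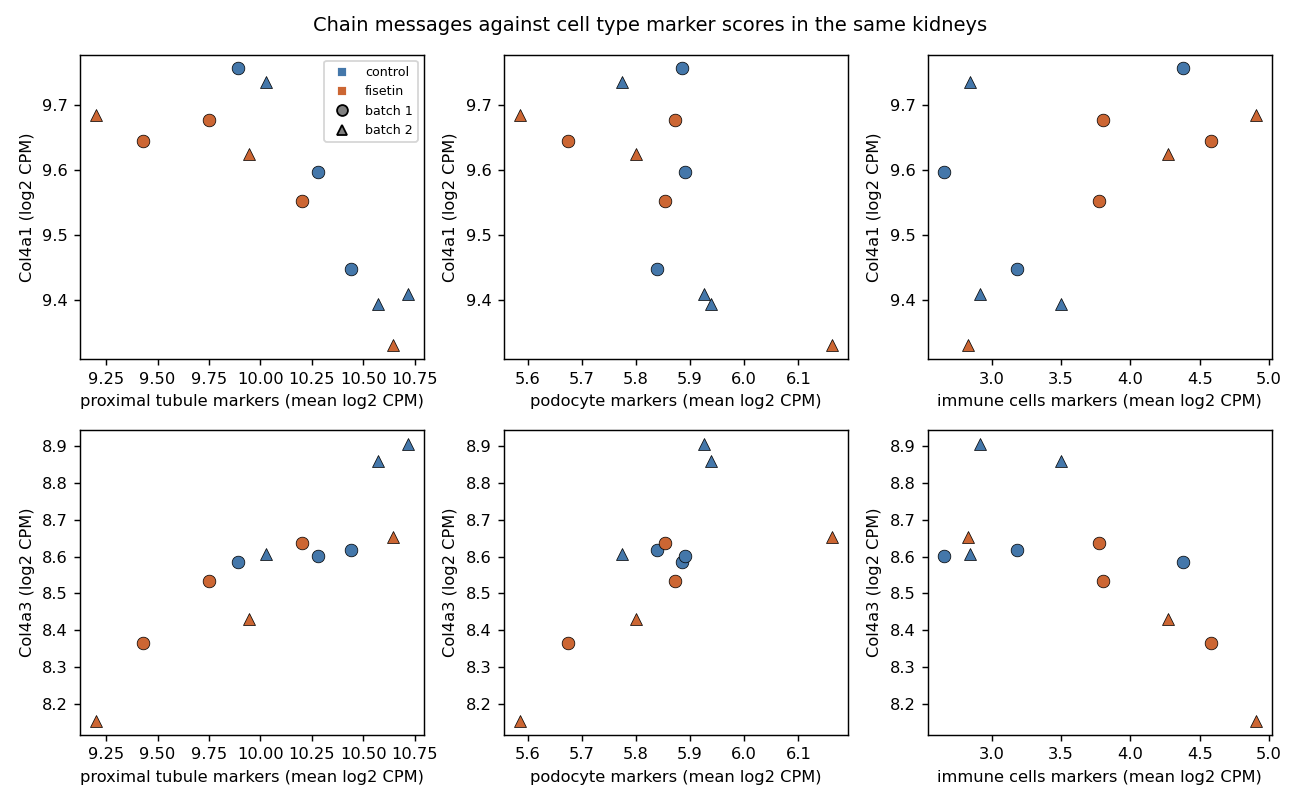
Log2 CPM of Col4a1 (top) and Col4a3 (bottom) against the mean log2 CPM of the proximal tubule, podocyte and immune marker lists (horizontal axes), 1 point a kidney, by diet (colour) and batch (shape). Col4a3 lies higher and Col4a1 lower in kidneys with higher proximal tubule scores (r = 0.90 and -0.80).

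The genes that modify, fold and cross-link collagen IV were considered next. Of 20 genes of synthesis and assembly, 16 had a negative and 4 a positive fold change (median -0.05), and 0 passed adjustment by edgeR or DESeq2. By unadjusted p under 0.05, 2 were lower and 0 higher, where 6.34% of all genes were lower and 8.23% higher. Plod2, a lysyl hydroxylase, had the smallest p among those lower (76.6 ± 5.38 CPM with control diet, 68.7 ± 3.40 with fisetin, log2 fold change -0.15 ± 0.05, unadjusted p = 0.00763, edgeR adjusted p = 0.281). Pxdn, the peroxidasin that forms the sulfilimine bonds between NC1 domains, was at 113 ± 11.9 and 125 ± 16.5 CPM (0.14 ± 0.09, edgeR adjusted p = 0.472). Serpinh1, the collagen chaperone HSP47, was at 175 ± 19.5 and 159 ± 18.4 CPM (-0.14 ± 0.09, edgeR adjusted p = 0.446).

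Of 18 partner genes of the basement membrane, 12 had a negative and 6 a positive fold change (median -0.01), with 1 lower and 0 higher by unadjusted p (6.34% and 8.23% of all genes). Npnt, nephronectin, a ligand of integrin α8β1, was at 249.8 ± 8.44 CPM with control diet and 206 ± 26.4 with fisetin (log2 fold change -0.28 ± 0.08, unadjusted p = 0.00489, edgeR adjusted p = 0.276). Of the laminin genes of the mature glomerular membrane, Lama5 was at 369 ± 33.9 and 369 ± 37.9 CPM and Lamb2 was at 122 ± 9.23 and 121 ± 11.05 CPM. Nid1, nidogen-1, which links laminin to collagen IV, was at 184 ± 19.8 and 194 ± 17.2 CPM (0.08 ± 0.08).

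Of 8 receptor genes, 4 had a positive and 4 a negative fold change (median 0.04), and 1 was higher by unadjusted p (8.23% of all genes), Itga1, the collagen-binding integrin α1 (0.15 ± 0.06, unadjusted p = 0.0311, edgeR adjusted p = 0.315). Itga3, a laminin-binding integrin of podocytes, had the smallest p among those lower (-0.06 ± 0.07, unadjusted p = 0.423). Of 9 tested genes of matrix turnover (10 listed), 6 had a positive fold change (median 0.23) and 2 were higher by unadjusted p, against 8.23% of all genes. Mmp7, matrilysin, was at 2.84 ± 1.21 and 5.48 ± 2.27 CPM (0.95 ± 0.36, unadjusted p = 0.0215, edgeR adjusted p = 0.303), and Timp3, a matrix-bound inhibitor of metalloproteinases, at 1873 ± 310 and 1592 ± 229 CPM (-0.23 ± 0.12, unadjusted p = 0.0935).

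Of 12 regulators of collagen IV genes, 9 had a positive and 3 a negative fold change (median 0.08), against 49.8% of all genes with a negative one, and 2 were higher by unadjusted p, against 8.23% of all genes. Smad4, the common mediator of TGF-β signals, had the smallest p (0.11 ± 0.04, unadjusted p = 0.0174, edgeR adjusted p = 0.302), and among those lower it was the ligand gene Tgfb3 (-0.16 ± 0.16, unadjusted p = 0.318). Lmx1b, a podocyte transcription factor that acts on Col4a3 and Col4a4, was at 4.29 ± 0.66 and 4.05 ± 0.87 CPM (-0.08 ± 0.15, edgeR adjusted p = 0.794).

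Of 12 genes of the interstitial matrix, 8 had a negative and 4 a positive fold change (median -0.05), against 49.8% of all genes with a negative one. By unadjusted p under 0.05 there were 0, against 14.6% of all genes. The smallest p on each side were those of Col6a2 (-0.19 ± 0.09, unadjusted p = 0.0597) and Col5a2 (0.11 ± 0.11, unadjusted p = 0.369). Col1a1 and Col3a1, the main fibrillar collagens of scar tissue, had log2 fold changes of -0.02 ± 0.15 and -0.14 ± 0.14. Beside them, Col4a1 and Col4a2 had values of 0.03 and -0.02 with smaller standard errors.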

How the data were processed

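Counts in the deposited table are estimated counts by the authors, not scaled for depth, beside FPKM and TPM values scaled by the authors for length and depth, per the file headers. The submitters' processing notes list the tools fastp, STAR, featureCounts and DESeq2, with GRCm38 and mm10 as builds, and libraries were made from RNA with the KAPA mRNA HyperPrep kit, per the labels' protocols. Not given in the sources used here are settings, versions and annotation release. Of counts above 0, 13.91% were not whole (tolerance 1e-06), none of the chains' among them, and all were rounded.

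Libraries held 16310214 to 24451821 counts, and diet and batch came from the labels. Library numbers follow accession order and pair nothing. The least chi-square per degree of freedom between 2 libraries was 6.99, so none looked like a copy. In R 4.3.3, genes passing filterByExpr (minimum count 10) were scaled by TMM and tested with edgeR 4.0.16 (glmQLFit, robust, terms for batch and diet; glmQLFTest, two-sided), Benjamini-Hochberg adjusted over 17890 genes, threshold 0.05. DESeq2 1.42.0 and limma 3.58.1 (voom with quality weights) were alternatives, as were other scalings, log2(FPKM + 1) and log2(TPM + 1), marker covariates, single batches and leaving out each library. The tubule and immune covariates, the joint removal of fisetin 5 and fisetin 6, and the other correlation measures were added after seeing the data. Standard errors were derived from fold changes and F statistics. Scripts were tested on simulated data.

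Ratios used counts per kilobase of the union of exons (GENCODE M21, 55227 identifiers matched). Correlations used log2 CPM (prior count 2) and 100000 permutations. In each pathway list the genes named are those with the smallest unadjusted p of each sign, plus Lmx1b, Lama5, Lamb2, Nid1, Pxdn, Serpinh1, Col1a1 and Col3a1, and for likeness the 4 closest genes a chain. C430014B12Rik, Nphs1 and Lrp2 were named beside them, and 1 gene that this rule picks is not reported here. The members and lists were chosen with earlier results of these data known.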

Additional observations from a re-analysis of the deposited data

Results flagged for a closer look

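Of 26 sets of 6 libraries checked (each chain and each ratio within a diet), 1 held a kidney that stood apart, and chance alone marks about 1 in 20 such sets. Col4a1 in fisetin 6 was 643.71 CPM, against 751 to 824 CPM in the other 5 fisetin kidneys, a gap that was 0.628 of the whole range where 0.625 is the limit for 6 samples. In the same kidney Col4a2 was the lowest of all 12, the podocyte and endothelial marker levels were the highest, and Col4a5 was the highest. Without it the log2 fold change of Col4a1 was 0.07 by edgeR.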

How the results depend on the processing

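No paired analysis was possible because the library numbers follow accession order and pair no samples across diets. Over the alternatives the direction of Col4a3, Col4a4 and Col4a6 and of all 7 ratios was the same, with fold changes of -0.36 to -0.08, -0.43 to -0.14 and 0.04 to 0.55 for those 3 chains. The 0.04 for Col4a6 was by log2(TPM + 1), and log2(FPKM + 1) gave 0.045. Its levels lie far below the added 1, which shrinks both values. Its lowest value from counts was 0.29, in batch 2 alone. Col4a6 gave no value in batch 1 alone. Col4a4 passed by limma-voom (-0.32, adjusted p 0.0310, against 0.0310 to 0.873 over its alternatives). Col4a1 changed sign with the podocyte (-0.0082), proximal tubule (-0.11) and immune (-0.065) covariates. Col4a2 did so by limma-voom (0.069), with total count scaling (0.023), by FPKM (0.026) and TPM (0.062), and without fisetin 5 and fisetin 6 together (0.024). Col4a5 did so with the proximal tubule (3.6e-05) and immune (0.0062) covariates and in batch 1 alone (0.0025). Leaving out 1 library gave -0.0054 to 0.085 for Col4a1, -0.054 to 0.034 for Col4a2, -0.27 to -0.16 for Col4a3, -0.37 to -0.23 for Col4a4, -0.13 to -0.03 for Col4a5 and 0.43 to 0.62 for Col4a6, none passing by edgeR. For ratios it gave log2 differences of 0.031 to 0.060 for Col4a1 to Col4a2 (2 of 12 passing), 0.070 to 0.11 for Col4a3 to Col4a4 (3 passing) and -0.72 to -0.48 for Col4a5 to Col4a6 (2 passing). By FPKM, where the implied length varied between libraries, the Col4a3 to Col4a4 difference was 0.13 and passed. Genes called over the whole table numbered 0 by edgeR (2608 at an unadjusted p under 0.05), 153 by DESeq2, 2492 by limma-voom, 7 and 5 with the podocyte and proximal tubule covariates, 16 without fisetin 5 and fisetin 6, 1 in batch 1 alone, and 0 to 70 leaving out 1 library (70 without fisetin 6). With batch means subtracted, 4 chain pairs passed in place of 2, adding Col4a3 and Col4a4 each with Col4a5. The cause was not tested. Counts of 8 to 19 limit Col4a6, and the other chains are limited by the spread between kidneys.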
